A study of Rattus norvegicus with 18 samples.

Results

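Kcnf1, Prox1 and Mn1 are the genes that the study shows beside enhancers transcribed selectively in cortical, hippocampal and striatal neurons, respectively. Every ATAC-seq peak overlapping a 1 Mb window of the Rn6 assembly by at least 1 bp was taken as a member. The Kcnf1 window (chromosome 6, 41833366 to 42833366) and the Prox1 window (chromosome 13, 107780990 to 108780990) were centred on the enhancer shown with the gene, and the Mn1 window (chromosome 12, 50750230 to 51750230) on the start site of the gene. Together the 3 windows held 321 of the 192830 peaks of the series, with 107 at Kcnf1, 85 at Prox1 and 129 at Mn1, and no peak was cut by the edge of a window.

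ATAC-seq maps open chromatin with a transposase that inserts adapters where DNA is not wrapped around nucleosomes. The 18 libraries came from neurons cultured from cortex, hippocampus or striatum of rat embryos, each culture system with 3 libraries treated with vehicle (culture medium) and 3 treated with KCl, a salt that depolarises neurons. All groups shared the Sprague-Dawley strain, tissue from embryonic day 18, 11 days in vitro and a treatment of 1 h, and the KCl concentration is 25 mM in the sample labels but 10 mM in the text of the series. The 6 libraries of each culture system were pooled across treatments before peaks were called, so that no value belongs to a single library, no effect of KCl was computed and no spread between replicates can be given. The deposited list holds the position of each peak and, in the fourth column, a whole number that the authors did not describe. This score is taken here to count the culture-system peaks that were joined into the listed peak. The depth of the libraries is unknown here, and the culture systems were not checked against marker genes, since no expression values were analysed.

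Enhancers are stretches of DNA that raise the transcription of genes at a distance. Their DNA is accessible when they are at work, and RNA is often copied from both of its strands. The study calls such transcribed intergenic regions transcriptionally active putative enhancers (TAPEs). Kcnf1 encodes a modifier subunit of voltage-gated potassium channels that forms no channel by itself, Prox1 a homeodomain transcription factor that marks granule neurons of the dentate gyrus, and Mn1 a regulator of transcription. By gene order in RefSeq on GRCr8, the nearest 3 protein-coding genes on either side of Kcnf1 were Rock2, Slc66a3 and C6h2orf50 and then Pdia6, Atp6v1c2 and Nol10. Prox1 was flanked by Cenpf, Ptpn14 and Smyd2 and by Rps6kc1, Angel2 and Vash2, and Mn1 by Tpst2, Crybb1 and Cryba4 and by Pitpnb, Ttc28 and Chek2.

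Of the 3 genes, 1 was matched in the RefSeq promoter sequences of GRCr8, namely Kcnf1, and Prox1 and Mn1 were not matched. The promoter is shown because it is the start of the gene beside which the cortical enhancer is placed. It lies on the minus strand at chr6:45693657-45693956 of GRCr8, a position that is not comparable with the Rn6 positions of the peaks. It is written 5′ to 3′ along the gene, with every match to CANNTG (an E-box, the core bound by many basic helix-loop-helix factors) in capitals.
Kcnf1 promoter: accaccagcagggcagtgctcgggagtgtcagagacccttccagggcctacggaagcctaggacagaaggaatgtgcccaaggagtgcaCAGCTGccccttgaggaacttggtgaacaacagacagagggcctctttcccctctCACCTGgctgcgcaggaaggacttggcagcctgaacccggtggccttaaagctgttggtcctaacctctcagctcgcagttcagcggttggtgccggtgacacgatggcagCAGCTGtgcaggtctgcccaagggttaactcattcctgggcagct
The E-box letters occurred at 3 places of the 300 bases shown, starting at base 90 as CAGCTG, at base 145 as CACCTG and at base 256 as CAGCTG again. At least 1 match was found in 72.1% of the 33469 promoters of the same length. Neither strand held a match to the other letters searched. Of all promoters, TATAAA occurred in 14.2%, while GGGCGG was found in 33.1% and CAGATG, a form of the E-box, in 16.6%. The share was 5.36% for TAATTA, the core of many homeodomain sites, and 33.7% for ACAAT on its own. It was 1.83% for TGACGTCA, the full cyclic AMP response element, and 7.33% for TGANTCA, the core bound by AP-1 factors. It contained 8 CpG dinucleotides against a median of 7 over all promoters, and 59.7% of its bases were G or C against a median of 51.7%. A match describes these letters only and says nothing of the binding of a factor.

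The central peaks of the Kcnf1 and Mn1 windows carried the same listed value, 3, and that of the Prox1 window a value of 2, and the 3 peaks differed in length. The Kcnf1 enhancer peak (chromosome 6, 42332278 to 42334454) measured 2177 bp and carried a value of 3. It was the third longest of its window and longer than most autosomal peaks with that value, at percentile 86.9 of 35078 (the percentage of peaks that are shorter, with ties split evenly). The Prox1 enhancer peak (chromosome 13, 108280482 to 108281499) measured 1018 bp, carried a value of 2 and stood at percentile 68.8 of the 60571 autosomal peaks with a value of 2. The Mn1 start site lay in a peak of 4310 bp (chromosome 12, 51247775 to 51252084) with a value of 3, the longest peak of any of the 3 windows and at percentile 99.3 of its class. Of the 3 TAPEs that the study lists as activity-regulated and pairs with Mn1, the nearest to the start site was taken. It lies on chromosome 12 from 51200881 to 51201770 and is called the Mn1 TAPE below. Whether it is the striatal enhancer that the study shows beside the gene was not checked. The Mn1 TAPE, centred 48904 bp from the start site, measured 890 bp and also carried a value of 3. It was short for that value, at percentile 18.0.

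The authors joined peaks of the same culture system that lay no more than 1000 bp apart and kept none shorter than 146 bp. Under the reading of the fourth column given above, 2 separate peaks of the same culture system therefore span at least 1293 bp, and a peak with a value of 3 that is shorter than this holds 1 peak from each of cortex, hippocampus and striatum. The Mn1 TAPE, at 890 bp, was of this kind, as was the other TAPE near it. For the Kcnf1 enhancer peak and the Mn1 start-site peak, both longer than 1293 bp, the number of culture systems could not be read from the value. The value of 2 at the Prox1 enhancer stands for 2 of the 3 culture systems, and which of them is not given by the list. A call in a culture system says that a peak was found there, not how high the signal was. Peaks with a value of 3 below 1293 bp numbered 15 of 107 at Kcnf1, 7 of 85 at Prox1 and 14 of 129 at Mn1, or 14.0%, 8.24% and 10.9%, against 9.22% of autosomal peaks.

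**Figure D1:**
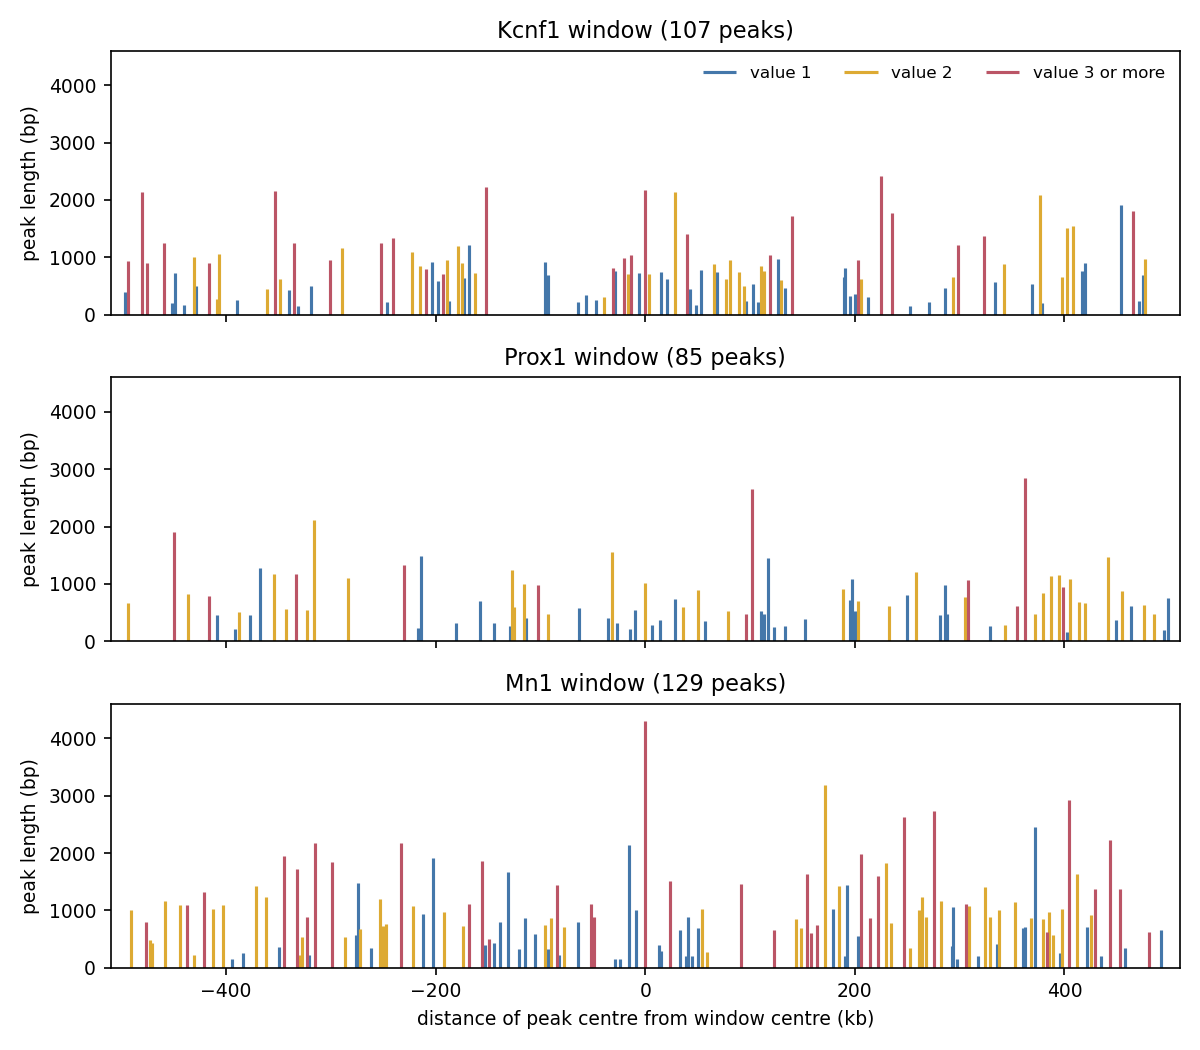
Peaks of the Kcnf1, Prox1 and Mn1 windows by distance of their centre from the window centre (kb), with a line for each peak whose height is its length (bp) and whose colour is its listed value. The peak at the Mn1 start site, at 4310 bp, is the tallest line, and the Kcnf1 enhancer at 2177 bp stands above the Prox1 enhancer at 1018 bp.

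The surroundings of the Kcnf1 enhancer were rich in peaks. Within 100 kb on either side of its centre lay 27 other peaks, against a median of 17 around 187145 autosomal peaks with this space on both sides, which is percentile 94.3. Of the 27 peaks, 14 carried a value of 1, 9 a value of 2 and 4 a value of 3. On the autosomes 48.4% of peaks carried a value of 1, 32.3% a value of 2 and 19.3% a value of 3 or more. Its nearest neighbour began 1992 bp after its end, at 42336447, and measured 700 bp with a value of 2, followed by a peak of 735 bp with a value of 1. On the lower side lay a peak of 719 bp with a value of 1, separated by 4840 bp, and then a peak of 1039 bp with a value of 3. The Mn1 TAPE had the same number of other peaks within 100 kb, 27, but 20 of them carried a value of 1, 3 a value of 2 and 4 a value of 3. It was picked as the paired TAPE nearest the start site, so its choice differs from that of the Kcnf1 enhancer.

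The Prox1 enhancer stood in sparser surroundings, with 15 other peaks within 100 kb (percentile 38.9). Of these, 9 carried a value of 1, 5 a value of 2 and 1 a value of 3. The 4 nearest neighbours, of 219, 541, 280 and 372 bp from lower to higher coordinates, all carried a value of 1. The nearest was separated from the enhancer by 5745 bp. Such a value is common, at 48.4% of autosomal peaks, and nothing particular to the locus is read from these 4.

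At Mn1, 3 peaks had the coordinates of activity-regulated TAPEs paired with the gene, and each carried a value of 3, the value of 18.7% of autosomal peaks. They included the Mn1 TAPE at 48904 bp and a peak of 1117 bp (51198142 to 51199258) separated from it by 1622 bp. The other was a peak of 1852 bp (50950808 to 50952659) centred 298496 bp from the start site. Another peak of the window, of 1720 bp with a value of 3 (50916741 to 50918460), is paired with Tfip11. No peak of the Kcnf1 or Prox1 window was in the same list of activity-regulated TAPEs. The list is very short beside the 192830 peaks of the series, so most windows hold none of its members. Nothing particular to a locus is read from these counts. Inside the Mn1 gene, with the ends that the study's TAPE list gives for it on Rn6, and apart from the peak over its start site, lay 4 peaks of 149, 159, 2143 and 1002 bp, and all 4 carried a value of 1, the value of 48.4% of autosomal peaks. These 4 were singled out after their values were seen. The peak of 2143 bp (51234145 to 51236287) was unusually long for that value, at percentile 99.8 of the 90723 autosomal peaks with a value of 1. The peak of 149 bp, the shortest of the window, lay 19332 bp from the Mn1 TAPE as its next neighbour. On the other side of the start site the nearest 2 peaks, of 398 and 297 bp, carried a value of 1 as well.

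Among 2609 windows of 1 Mb that tile the autosomes, the number of peaks ran from 1 to 150 with a median of 74 and quartiles of 53 and 91. The Mn1 window, with 129 peaks, stood at percentile 99.4, and 16 autosomal windows held as many or more. The Kcnf1 window, with 107, stood at percentile 92.0, with 215 windows at or above it. The Prox1 window, with 85, was nearer to the median, at percentile 66.0, with 904 windows at or above it. Within its own chromosome the order was the same. The Mn1 window exceeded all 52 windows of chromosome 12, whose median was 84, the Kcnf1 window stood at percentile 91.8 of 147 windows of chromosome 6, and the Prox1 window at percentile 73.7 of 114 windows of chromosome 13. Since the Kcnf1 and Prox1 windows were centred on a peak and the tiles were not, each window was also set against windows centred on every autosomal peak, which gave percentiles of 99.1 for Mn1, 87.1 for Kcnf1 and 51.9 for Prox1. With windows of 2 Mb the Prox1 value fell below the median, at percentile 47.7. With windows of 500 kb the order of the other 2 turned, with 124 peaks per Mb at Kcnf1 and 122 at Mn1.

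**Figure D2:**
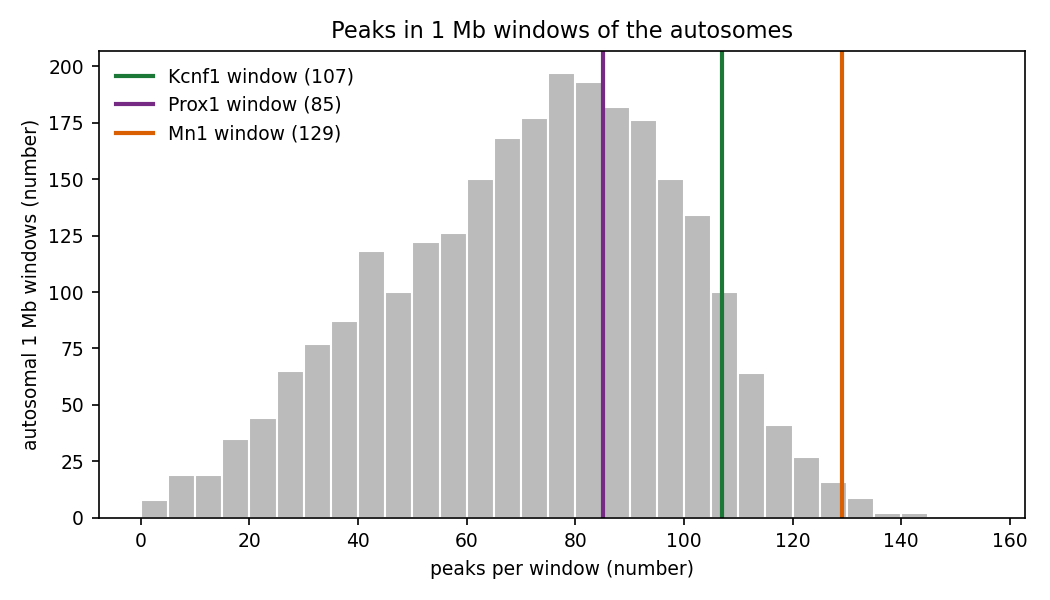
Number of autosomal 1 Mb windows (vertical axis) by number of peaks per window (horizontal axis, bars 5 peaks wide), with lines at the 3 windows. The Mn1 window at 129 peaks lies in the upper tail and the Kcnf1 window at 107 on the upper slope. The Prox1 window at 85 lies between the median of 74 and the upper quartile of 91.

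Measured in base pairs, open chromatin took up 128968 bp or 12.9% of the Mn1 window, 90564 bp or 9.06% of the Kcnf1 window and 65005 bp or 6.50% of the Prox1 window, against a median of 6.0% over the autosomal windows. The percentiles were 98.9, 87.0 and 56.8. The median gap between peaks was shorter at Kcnf1 and Mn1 than at Prox1, but the intervals of Kcnf1 and Prox1 overlapped. The median gap between neighbours was 5542.5 bp at Kcnf1 (95% interval 4748 to 6950 bp), 5534 bp at Mn1 (4604 to 6192 bp) and 8375 bp at Prox1 (6751 to 10256 bp), and over the autosomes it was 7836 bp. The Prox1 interval took in the autosomal value and those of Kcnf1 and Mn1 lay below it. With windows of 500 kb the Mn1 interval, 4514 to 7947 bp, took in the autosomal value. It then overlapped that of Prox1, 5231 to 12720 bp. These intervals come from the order statistics of the values and describe variation between peaks, not between cultures.

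The widest peak-free stretch in the Kcnf1 window measured 55582 bp, from 42182120 to 42237701, and was bounded by a peak of 2219 bp with a value of 3 and a peak of 909 bp with a value of 1. In the Prox1 window it measured 52057 bp, from 107998207 to 108050263, between a peak of 1094 bp with a value of 2 and a peak of 1337 bp with a value of 3. In the Mn1 window it measured 31974 bp, from 51308966 to 51340939, between a peak of 270 bp with a value of 2 and a peak of 1458 bp with a value of 3. The median over the autosomal windows with at least 2 peaks was 67916.5 bp. Among the widest gaps of these windows, that of Mn1 stood at percentile 3.37, that of Kcnf1 at 34.8 and that of Prox1 at 29.6.

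Along the windows, peaks were counted in 10 stretches of 100 kb. At Kcnf1 the count ran from 7 to 16, and the highest stretch began at the enhancer and reached 100 kb to its higher-coordinate side, with 7 peaks of value 1, 7 of value 2 and 2 of value 3. At Prox1 it ran from 5 to 12, with the highest count in the last stretch, from 400 kb onwards, where 5 peaks carried a value of 1, 7 a value of 2 and none a value of 3. At Mn1 it ran from 11 to 18, so that its poorest stretch held more peaks than the median stretch of the other 2 windows, 10.5 at Kcnf1 and 9 at Prox1. The richest stretch at Mn1 began 300 kb above the start site, and 10 of its 18 peaks carried a value of 2. Below and above the centre lay 52 and 54 peaks at Kcnf1, 35 and 49 at Prox1, and 61 and 67 at Mn1.

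**Figure D3:**
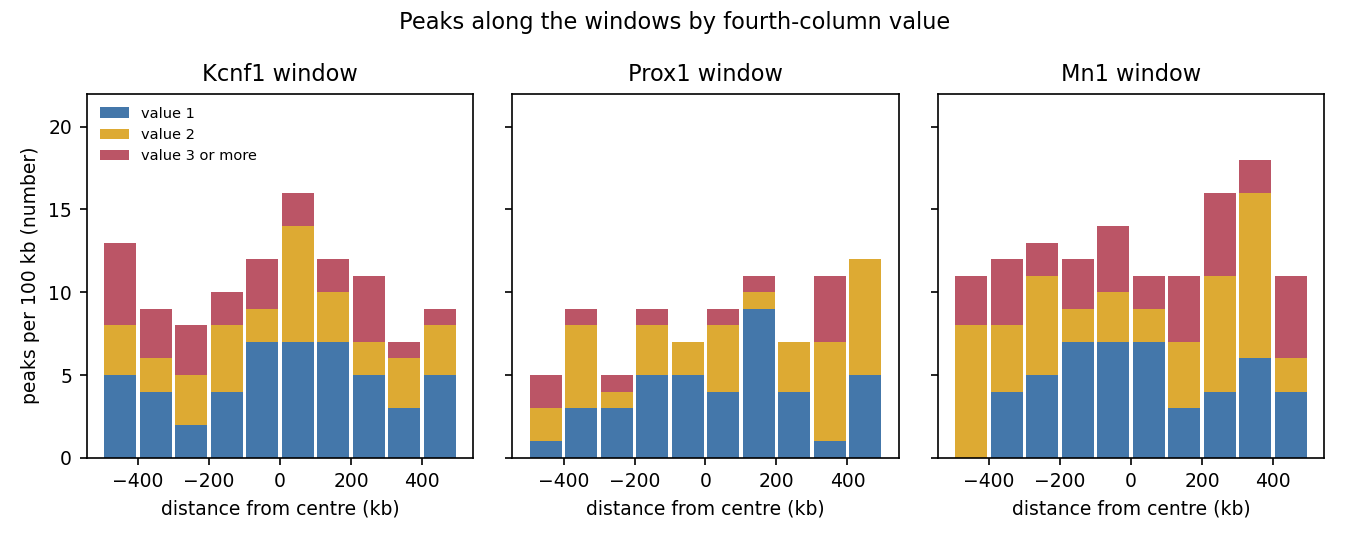
Peaks per 100 kb (number) by distance from the window centre (kb) in the Kcnf1, Prox1 and Mn1 windows, stacked by listed value. The count runs from 7 to 16 at Kcnf1, from 5 to 12 at Prox1 and from 11 to 18 at Mn1.

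A value of 1, which stands for a call in a single culture system under the reading used, was carried by 49 of 107 peaks at Kcnf1 (45.8%, Wilson 95% confidence interval 36.7 to 55.2%), by 40 of 85 at Prox1 (47.1%, 36.8 to 57.6%) and by 47 of 129 at Mn1 (36.4%, 28.6 to 45.0%), against 48.4% of the 187393 autosomal peaks. The shares at Kcnf1 and Prox1 were close to the autosomal share, and the interval at Mn1 lay below it. With windows of 500 kb the Mn1 share was 44.3% (32.5 to 56.7%), and with peaks of 500 bp or more it was 23.2% (16.0 to 32.5%) against 29.9% on the autosomes, so that in both settings the interval took in the autosomal share. A value of 2 was carried by 29.9% of peaks at Kcnf1 (22.1 to 39.2%), 40.0% at Prox1 (30.2 to 50.6%) and 37.2% at Mn1 (29.4 to 45.8%), against 32.3%, and the 3 intervals took in the autosomal share. A value of 3 or more was carried by 26 peaks or 24.3% at Kcnf1 (17.2 to 33.2%), 11 peaks or 12.9% at Prox1 (7.38 to 21.7%) and 34 peaks or 26.4% at Mn1 (19.5 to 34.6%), against 19.3%. For this class the interval at Mn1 lay just above the autosomal share, and those at Kcnf1 and Prox1 took it in. With peaks of 300 or 500 bp or more the interval at Mn1 took in the autosomal share as well. The place of the Mn1 window depended on the windows it was set against. Over the 48 windows of chromosome 12 with at least 20 peaks, the median share with a value of 1 was 40.1%, and the Mn1 window stood at percentile 31.2 among them, while over 2528 such windows of all autosomes the median was 50% and the percentile 12.0. For values of 3 or more the Mn1 window stood at percentile 81.4 of the autosomal windows but at 41.7 of those of chromosome 12, whose median share was 28.4%. No difference between windows was tested, because the peaks of a window are not replicates.

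**Figure D4:**
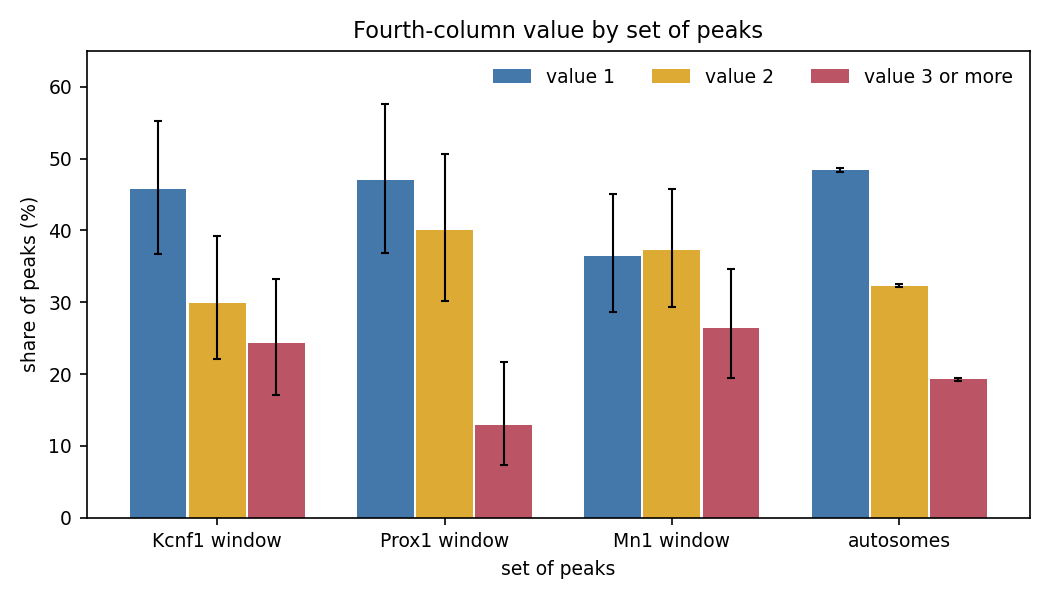
Share of peaks (%) with a listed value of 1, 2, or 3 or more in the Kcnf1, Prox1 and Mn1 windows and on the autosomes, with Wilson 95% confidence intervals as error bars. The share with a value of 1 is 36.4% at Mn1 and 48.4% on the autosomes, and the share with a value of 3 or more is 12.9% at Prox1.

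Near the centres, peaks with a value of 1 made up 14 of 28 peaks within 100 kb at Kcnf1 (50%, Wilson interval 32.6 to 67.4%), 9 of 16 at Prox1 (56.2%, 33.2 to 76.9%) and 14 of 25 at Mn1 (56%, 37.1 to 73.3%). Farther out they made up 35 of 79 at Kcnf1 (44.3%), 31 of 69 at Prox1 (44.9%) and 33 of 104 at Mn1 (31.7%, 23.6 to 41.2%). In each window the share was higher near the centre, with overlapping intervals in each case. The longest unbroken run of peaks with a value of 1 was 7 peaks at Prox1, over 87991 bp from 108064321 to 108152311 on the lower side of the enhancer, 6 at Mn1, over 39256 bp from 51105671 to 51144926, and 5 at Kcnf1, over 48882 bp from 42237702 to 42286583. Over the autosomal windows the median of the longest run was 5, and the 3 windows stood at percentiles 74.7, 60.9 and 42.1, so that none was far from the other windows. The run at Kcnf1 began right after the widest gap of that window.

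Neighbours no more than 1000 bp apart were rare, with 1 pair at Kcnf1, 2 at Prox1 and 2 at Mn1. Each window held 1 such pair in which both peaks carried a value of 1. Because the authors joined peaks of the same culture system over this distance, the members of such a pair come from different culture systems under the reading used. At Kcnf1 they measured 661 and 810 bp and were 184 bp apart (42523052 to 42523712 and 42523897 to 42524706). At Prox1 they measured 226 and 211 bp and were 60 bp apart (108064321 to 108064546 and 108064607 to 108064817). At Mn1 they measured 378 and 1054 bp and were 648 bp apart (51542763 to 51543140 and 51543789 to 51544842). On the autosomes, 1.85% of neighbouring pairs were this close, and 63.8% of those had a value of 1 in both.

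The Mn1 window had the highest median peak length, with an interval that overlapped those of the other windows, and no difference was tested. The median length was 874 bp at Mn1 (95% interval 741 to 1011 bp), 747 bp at Kcnf1 (661 to 889 bp) and 622 bp at Prox1 (532 to 768 bp), against 689 bp on the autosomes. The interval at Mn1 lay above the autosomal median, and those at Kcnf1 and Prox1 took it in. With peaks of 500 bp or more the Mn1 interval, 894 to 1114 bp, took in the autosomal median of 911 bp. Quartiles were 537 and 1242 bp at Mn1, 481.5 and 1025.5 bp at Kcnf1 and 451 and 1005 bp at Prox1. Peaks of 1000 bp or more numbered 55 of 129 at Mn1 (42.6%, Wilson interval 34.4 to 51.3%), 28 of 107 at Kcnf1 (26.2%, 18.8 to 35.2%) and 22 of 85 at Prox1 (25.9%, 17.8 to 36.1%), against 28.2% of autosomal peaks. With windows of 500 kb the share at Mn1 was 37.7% (26.6 to 50.3%), an interval that took in the autosomal share. As a count, 55 such peaks placed the Mn1 window at percentile 99.6, above every window of its chromosome, and 28 and 22 placed Kcnf1 and Prox1 at percentiles 76.1 and 59.1. The median length at Mn1 stood at percentile 94.8 of all autosomal windows and at 82.7 of those of chromosome 12, where the median over windows was 727.75 bp.

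Under the reading used, a peak with a higher listed value joins more intervals and tends to be longer by construction, on the autosomes as in the windows, so lengths are given within each value. Peaks with a value of 1 had a median of 503 bp at Kcnf1 (339 to 635 bp), 429.5 bp at Prox1 (317 to 532 bp) and 427 bp at Mn1 (338 to 697 bp), against 430 bp on the autosomes. With a value of 2 the medians were 849.5, 791.5 and 944 bp (autosomes 829 bp), and with a value of 3 they were 1246.5, 1062 and 1374 bp (autosomes 1303 bp). Within each value the interval of each window took in the autosomal median. Peaks with a value of 3 or more made up 39.2% of the open base pairs at Kcnf1, 22.7% at Prox1 and 40.3% at Mn1, against 35.1% on the autosomes. Peaks with a value of 2 made up 32.0% at Kcnf1, 45.2% at Prox1 and 35.7% at Mn1, against 35.7% on the autosomes.

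**Figure D5:**
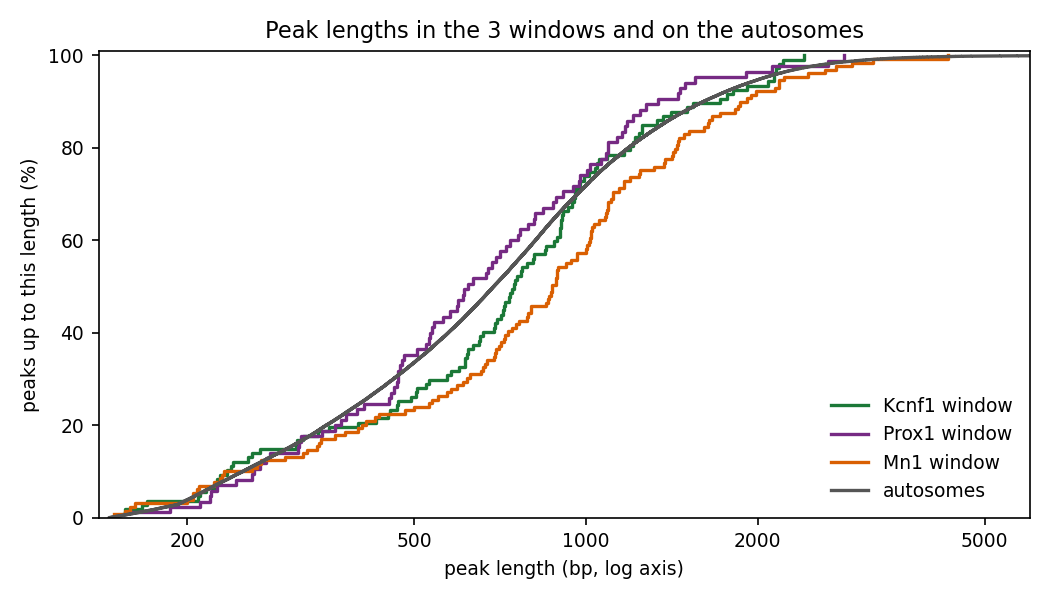
Percentage of peaks up to a given length (bp, log axis) in the Kcnf1, Prox1 and Mn1 windows and on the autosomes. The Mn1 curve runs to the right of the others over most lengths, with a median of 874 bp against 747 bp at Kcnf1, 622 bp at Prox1 and 689 bp on the autosomes.

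By length, the central peak ranked 1 of 129 at Mn1, 3 of 107 at Kcnf1 and 21 of 85 at Prox1. The 3 longest peaks of each window are given here. At Kcnf1 the longest measured 2410 bp (42556984 to 42559393, value 3) and was centred 224822 bp above the enhancer, followed by the peak of 2219 bp at 152356 bp below it and the enhancer peak itself. At Prox1 they measured 2838 bp (108641602 to 108644439, value 3), 2656 bp (108381797 to 108384452, value 3) and 2121 bp (107963551 to 107965671, value 2), centred 362030, 102134 and 316379 bp from the enhancer. The peak of 2121 bp was long for a value of 2, at percentile 97.0. At Mn1 the start-site peak was followed by a peak of 3182 bp with a value of 2 (51420208 to 51423389), at percentile 99.8 of its class, and a peak of 2932 bp with a value of 3 (51653053 to 51655984). The longest peak of the Kcnf1 window stood only at percentile 27.2 of the longest peaks of all autosomal windows, that of Prox1 at 50.1 and that of Mn1 at 90.1.

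Values of 4 or more, carried by 0.545% of autosomal peaks, occurred in the Mn1 window alone among the 3. They were a peak of 2184 bp with a value of 4 (51016212 to 51018395), centred 232926 bp below the start site, and a peak of 2742 bp with a value of 5 (51524091 to 51526832), centred 275231 bp above it. Both were short for their values, at percentiles 5.55 of 784 and 16.8 of 217 autosomal peaks. Together they made up 1.55% of the 129 peaks at Mn1 (Wilson interval 0.426 to 5.48%), an interval that took in the autosomal share. None of 107 peaks at Kcnf1 and none of 85 at Prox1 carried a value of 4 or more. This allows shares of up to 3.47 and 4.32% by the Wilson interval. Of the 2609 autosomal windows, 168 held at least 2 such peaks.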

How the data were processed

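Per the submitters' processing notes and the study's methods, the authors checked reads with FastQC, trimmed them with Trim Galore 0.4.5, aligned them to Rn6 with Bowtie2 2.3.4.2, handled alignments with SAMtools 1.9, pooled the 6 libraries of each of the 3 culture systems and ran MACS2 on every pool to call peaks. The deposited file gives each peak's chromosome, start, end and a score, a whole number from 1 to 10 that the authors did not describe. None of the 1060 peaks of the series with a score of 4 or more was shorter than 1293 bp, the span that the reading of the score as a number of joined peaks requires. Of all peaks, 83.3% were shorter than this span. The check cannot single out this reading, because another score that rises with peak length could pass it too. The file holds 0 columns of values per library, so depth and precision per library are unknown here and no statistical test was made. Starts were converted to positions counted from 1.

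A peak belonged to a window by an overlap of at least 1 bp. Autosomal windows tiled each of the 20 autosomes from its first base to its last peak, and shares were compared over those with at least 20 peaks. A percentile is the share of windows or peaks with a lower value, with ties split evenly. The named peaks were the peak at each centre, the TAPEs paired with Mn1, the 2 neighbours on each side of these, the 3 longest peaks, peaks with a value of 4 or more and the widest gap of each window. Close pairs, runs, the TAPE paired with Tfip11 and the peaks inside Mn1 were chosen after their values were seen. Members and lists were chosen with earlier results of these data known. Alternatives changed the minimum length, merging, membership, window size and placing, the value required and the summary. Those for gaps, values of 3 or more and peaks of 1000 bp or more were chosen after seeing the data. The calculations used Python 3.11.15, numpy 2.4.6, pandas 2.3.3, scipy 1.17.1 and matplotlib 3.10.9 and were tested on simulated peaks. The Rn6 start site of Mn1 came with the definition of the windows and the ends of the gene from the study's list of activity-regulated TAPEs. Other Rn6 gene annotation, enhancer sequences, RNA-seq values and signal heights were not used here.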

Additional observations from a re-analysis of the deposited data

How the results depend on the processing

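Of 96 values recomputed under alternatives, 66 stayed close to the value reported. Close means within 1.5 times for peaks per Mb and within the 95% interval for the others. For the percentiles this was a Wilson interval over the 2609 autosomal windows. Neighbouring windows are not replicates, so that interval is only a yardstick, and 17 of the 33 percentile values stayed within it. Some of the 96 values could not move. No peak was cut by a window edge, so assigning peaks by their centre left the peaks of each window the same. No autosomal window was empty, so leaving out empty windows changed nothing. With peaks of 500 bp or more, the peaks per Mb of the Prox1 window moved to 55.0, the median lengths to 905 bp at Kcnf1, 876 bp at Prox1 and 1022 bp at Mn1, the shares with a value of 1 to 31.6%, 27.3% and 23.2%, and the percentiles of the number of peaks to 94.6, 61.3 and 99.9. With 300 bp the percentile at Kcnf1 was 90.1. With only values of 2 or more, peaks per Mb were 58.0 at Kcnf1, 45 at Prox1 and 82.0 at Mn1, median lengths 957.5, 876 and 1027.5 bp, and the percentiles of Kcnf1 and Mn1 86.3 and 99.0. These settings remove short or single-system peaks by construction.

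With windows of 500 kb, the share with a value of 1 was 62.8% at Prox1 and 44.3% at Mn1, and the percentiles of Kcnf1 and Mn1 were 96.9 and 96.2. With windows of 2 Mb the percentiles were 93.3 at Kcnf1, 47.7 at Prox1 and 96.4 at Mn1. Against windows centred on each autosomal peak they were 87.1 at Kcnf1 and 51.9 at Prox1, and by the number of bp inside peaks 87.0, 56.8 and 98.9. Among 54 added values, chosen after seeing the data, 48 stayed within the interval reported. Those with peaks assigned by their centre are among the 48 and could not differ, for the reason given above. With peaks of 500 bp or more, the shares of 1000 bp or more were 35.4%, 40% and 55.6% at Kcnf1, Prox1 and Mn1, and the median gaps 7379, 12087 and 6983.5 bp.

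The place of the Mn1 interval beside the autosomal value was not stable in every setting. It took in the autosomal value for the share with a value of 1 and the median length with peaks of 500 bp or more, for the share with a value of 3 or more with peaks of 300 or 500 bp or more, and, with windows of 500 kb, for the share with a value of 1, the share of 1000 bp or more and the median gap. For window size and placing the cause was not tested. Mn1 had the longest and Prox1 the shortest median under each minimum length, merging, membership, window size and value setting. Prox1 was last in peaks per Mb under the same settings, and Kcnf1 led Mn1 in windows of 500 kb only.

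No paired analysis was possible because the authors called peaks on pools of 6 libraries. The list holds no read numbers, so peaks near the caller's threshold depend on a depth that is unknown here. The part of depth in the listed values of the 3 pools was not tested. The 3 windows were picked for their enhancers, and no window stands for its brain region.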
